A study of Mus musculus with 6 samples.

Results

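The 10 genes described here encode the enzymes that place, shape and remove sulfate groups on heparan sulfate chains. They were chosen by role: Hs6st1 and Hs6st2 (6-O-sulfation), Hs2st1 (2-O-sulfation), Hs3st1 and Hs3st3b1 (3-O-sulfation), Ndst1 and Ndst2 (N-deacetylation and N-sulfation), Glce (epimerisation), and Sulf1 and Sulf2 (removal of 6-O-sulfate outside the cell). All 10 were among the 22815 genes matched on the array, and all 10 were among the 16370 genes tested. Lung RNA came from male C57BL6 mice 10 weeks old, which were starved for 16 h and then given LPS (lipopolysaccharide, the endotoxin of Gram-negative bacteria) at 20 mg/kg. At 3 and 24 h after LPS, 3 mice received saline and 3 mice received rhTM (recombinant human thrombomodulin, the soluble form of an endothelial anticoagulant receptor) at 30 mg/kg, and lungs were taken at 30 h. Both groups therefore carried the endotoxin challenge, and no array of a mouse without LPS was analysed here. The model uses endotoxin without live bacteria, a human protein in a mouse host, and RNA of whole lung. In such bulk RNA, fewer cells of a type and less RNA per cell cannot be told apart.

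Heparan sulfate is a long sugar chain carried by core proteins at the cell surface and in the matrix, and it is a main constituent of the endothelial glycocalyx, the sugar layer that lines blood vessels. After polymerisation in the Golgi, N-deacetylase/N-sulfotransferases act first, the epimerase and the 2-O-sulfotransferase follow, and 6-O- and 3-O-sulfotransferases act late. The sulfation pattern left by these enzymes decides which growth factors, chemokines and coagulation inhibitors, such as antithrombin, the chain can bind.

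Each mouse gave 1 array, and 36002 to 40503 of the 56207 probes used were well above background on an array. Levels below are the signal of a probe divided by the 75th percentile of its array, which was 675 to 850 intensity units. A level is therefore comparable between arrays for the same gene but not between genes. The arrays of saline replicate 1 and rhTM replicate 2 were assigned to opposite groups in the scanner output and in the authors' table of values. The table column for saline replicate 1 matched the scanner values of rhTM replicate 2 at 99.9% of probes within 0.1%, against 0.137% for its own array, and the reverse exchange held for the other column. From the sample labels alone neither assignment can be preferred. The main values below follow the scanner output, and those of the table are given beside it for the 10 genes. They are also given for the other tested genes of heparan sulfate synthesis, sulfate donor supply and cleavage that are named. The array of saline replicate 1 also had a spike-in slope of 0.826, outside the accepted range, whereas the others lay between 1.07 and 1.09. Slide 1 held 4 arrays and slide 2 held saline replicate 1 and rhTM replicate 3. The markers of endothelium (10 of 10), neutrophils (8 of 8), macrophages (7 of 7) and AT2 cells (7 of 7) were all above background.

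No sulfotransferase, epimerase or endosulfatase passed the test between rhTM and saline. By the scanner output 0 of 10 passed an adjusted p of 0.05 (limma, Benjamini-Hochberg over all genes), beside 0% of the 16370 genes tested. At an unadjusted p under 0.05 the count was 0 of 10, beside 1.87% of all genes. The log2 fold change of rhTM over saline lay between -0.38 and 0.35, with 6 genes higher and 4 lower, and its median was 0.05 against 0.003 over all genes tested. In the authors' table the count was again 0 of 10, beside 0% of all genes, while 3 of 10 had an unadjusted p under 0.05, beside 14.0% of all genes. Complete separation of saline from rhTM arrays was seen for 1 of 10 by the scanner output (5.52% of all genes), and for 3 of 10 in the table (21.7%). With 3 mice against 3, an exact permutation test cannot give a p below 0.10.

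**Figure D1:**
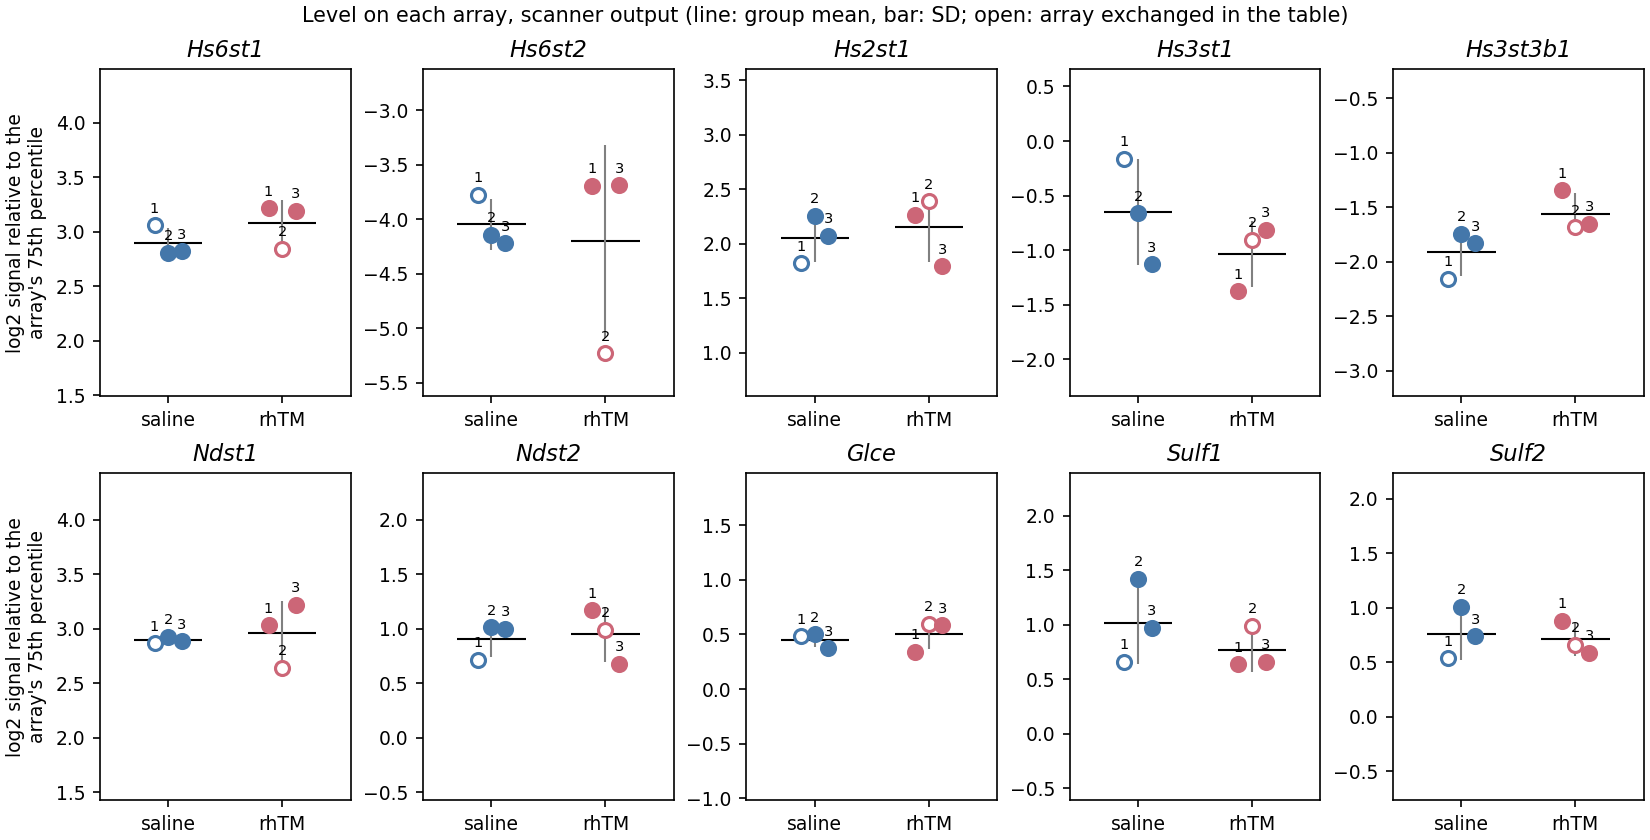
Each panel shows the log2 signal of 1 gene relative to the 75th percentile of its array, for 3 saline (blue) and 3 rhTM (red) arrays, numbered by replicate, with the group mean as a line and the SD as a bar. Every panel spans 3 log2 units. Open points are the arrays that the table assigns to the opposite group, and Hs3st3b1 is the gene whose groups do not overlap.

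Hs6st1, which adds sulfate to the 6-O position of glucosamine, had levels of 8.35, 7.01 and 7.07 in the saline mice. In the rhTM mice its levels were 9.31, 7.18 and 9.15. Both high rhTM arrays lay above all saline arrays, but rhTM replicate 2 lay below saline replicate 1, so the groups overlapped. The means were 7.47 ± 0.759 in saline and 8.55 ± 1.18 in rhTM (SD, n = 3 each), a log2 fold change of 0.19 (95% interval -0.18 to 0.55, adjusted p = 0.9999 by limma, exact permutation p = 0.2). The table places the overlapping pair the other way round. Its saline levels were then 7.18, 7.01 and 7.07 and its rhTM levels 9.31, 8.35 and 9.15, which did not overlap. The log2 fold change became 0.33 (0.11 to 0.56), a fold of 1.26, with an adjusted p of 0.314 (limma) and an exact permutation p of 0.1, the smallest the design allows. By the scanner output the value was 0.22 within slide 1 and 0.13 within slide 2, while in the table slide 2 holds rhTM arrays only. Hs6st1 was higher with rhTM under each of the 17 alternatives run, by 0.12 to 0.39. The largest value came from the table with slide as a block, where 1 rhTM array carries the contrast. Some alternatives could not move the value from 0.19: the filters, the mean of probes, and the slide and replicate blocks on the scanner values. Hs6st1 has 1 probe, above background on all 6 arrays, and those blocks are balanced.

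Hs6st2, the second 6-O-sulfotransferase, was dim, with a mean signal of 45.3 units over the arrays. Its levels were 0.073, 0.057 and 0.054 in saline, and 0.077, 0.027 and 0.077 in rhTM. The single low value was rhTM replicate 2, 1 of the exchanged arrays. The log2 fold change was -0.16 (-1.16 to 0.84), and it turned to 0.81 (0.12 to 1.5, adjusted p = 0.326 by limma) under the table, where all rhTM values exceeded all saline values. The within-group SD of this gene, 0.65 on the log2 scale, was at the 95.4th percentile of all genes tested. The other probe for this gene read 0.22 from the scanner and 0.91 from the table. Hs6st1 and Hs6st2 were thus 2 of 10 genes with the rhTM arrays entirely on the higher side in the table, beside 9.68% of all genes.

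Hs2st1, which sulfates the 2-O position of iduronic acid, had levels of 3.54, 4.78 and 4.20 in saline. The rhTM levels were 4.81, 5.24 and 3.46, so that rhTM held both the highest and the lowest array. The highest was rhTM replicate 2, which the table counts as saline. The groups differed by 0.10 on the log2 scale (-0.38 to 0.57), and by -0.28 (-0.68 to 0.11) under the table. Its second probe gave -0.08 and -0.17.

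The 3-O-sulfotransferases add the rarest of these sulfates. Hs3st1, the isoform known for making the antithrombin-binding site, had levels of 0.894, 0.633 and 0.456 in saline and 0.385, 0.534 and 0.568 in rhTM. The highest array was saline replicate 1, and the groups overlapped. The log2 fold change was -0.38 (-1.03 to 0.27, exact permutation p = 0.4), a fold of 0.768, and a second probe gave -0.34. Under the table the main probe gave 0.11 and the second probe -0.06. By the scanner assignment the value was -0.25 within slide 1 and -0.65 within slide 2.

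Hs3st3b1, an isoform known for making the herpes simplex virus entry site, had levels of 0.224, 0.299 and 0.281 in saline. Its levels in rhTM were 0.394, 0.311 and 0.319, each above all saline arrays. It was the 1 of 10 genes with this order by the scanner output, beside 2.95% of all genes. The means were 0.268 ± 0.0389 in saline and 0.341 ± 0.0456 in rhTM (SD, n = 3 each). The log2 fold change was 0.35 (-0.04 to 0.74), a fold of 1.28, with an unadjusted p of 0.071 and an adjusted p of 0.9999 (limma), and an exact permutation p of 0.1. Within slide 1 the value was 0.27, and within slide 2 it was 0.51. Under the table the separation was lost and the value was 0.04 (-0.46 to 0.53). The 2 isoforms thus had opposite signs by the scanner output, with both intervals including 0.

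**Figure D2:**
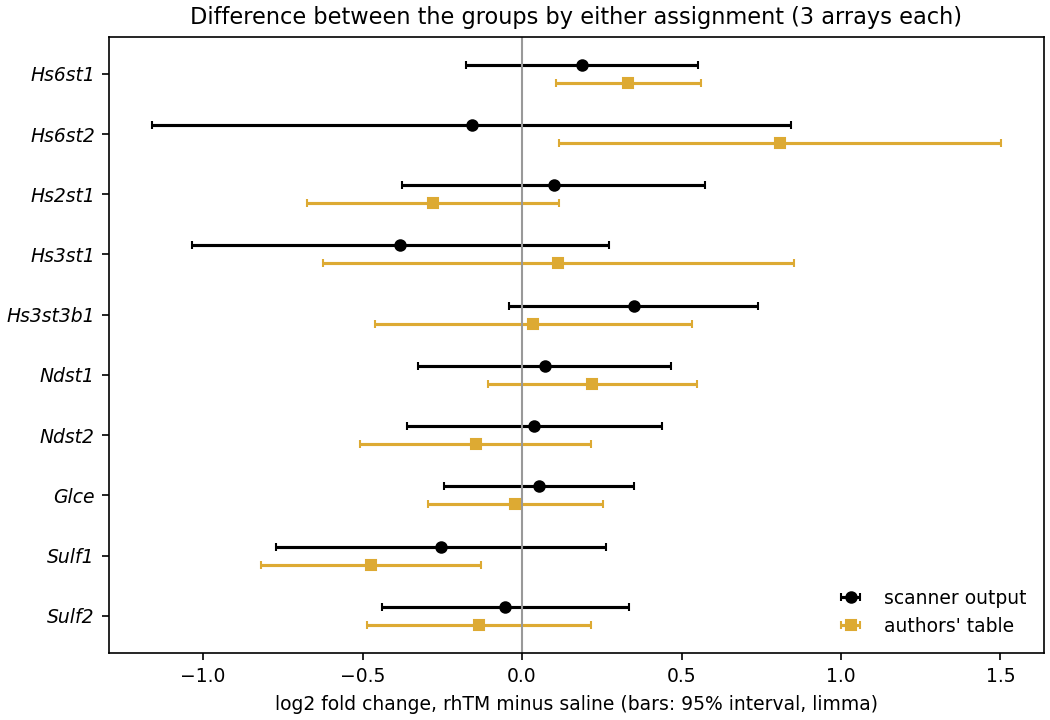
Log2 fold change of rhTM over saline (x axis) for each of the 10 genes, with 95% intervals from limma, by the scanner output (black circles) and by the authors' table (yellow squares), 3 arrays a group. All scanner intervals cross 0, while the table intervals of Hs6st1, Hs6st2 and Sulf1 do not, and no adjusted p was under 0.05 by either.

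Ndst1, the main enzyme that replaces the acetyl group of glucosamine by sulfate, had levels of 7.28, 7.60 and 7.37 in saline and 8.17, 6.24 and 9.30 in rhTM. The saline arrays lay close together (SD 0.162), whereas the rhTM arrays spread to both sides of them (SD 1.55). Under the table the SDs were 0.730 in saline and 1.01 in rhTM, and the lowest array counted as saline. The difference was 0.07 on the log2 scale (-0.33 to 0.47) and 0.22 (-0.11 to 0.55) under the table. Its 2 other probes gave -0.06 and 0.16 by the scanner output. Ndst2, the isoform known from mast cell heparin, had levels of 1.64, 2.02 and 2.00 in saline and 2.25, 1.99 and 1.6 in rhTM. Again the rhTM mice held both the highest and the lowest array. Their log2 fold change was 0.04 (-0.36 to 0.44), and -0.15 (-0.51 to 0.22) under the table.

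Glce, the epimerase that turns glucuronic into iduronic acid and so prepares the substrate of Hs2st1, varied least. Its levels were 1.40, 1.42 and 1.30 in saline and 1.27, 1.52 and 1.498 in rhTM. Its within-group SD of 0.11 log2 units was at the 16.3rd percentile of all genes tested, and its log2 fold change of 0.05 had the narrowest interval of the 10 genes (-0.24 to 0.35). The table gave -0.02 (-0.30 to 0.25).

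The endosulfatases trim 6-O-sulfate from finished chains, opposite in action to Hs6st1 and Hs6st2. Sulf1 had levels of 1.58, 2.68 and 1.96 in saline and 1.56, 1.99 and 1.58 in rhTM. Saline replicate 2 stood highest, and saline replicate 1 lay among the rhTM arrays. The means were 2.07 ± 0.557 and 1.71 ± 0.243 (SD, n = 3 each), a log2 fold change of -0.25 (-0.77 to 0.26, adjusted p = 0.9999 by limma, exact permutation p = 0.4). Under the table every rhTM array lay below every saline array, with a log2 fold change of -0.47 (-0.82 to -0.13), a fold of 0.720 and an adjusted p of 0.314 (limma). By the scanner assignment the value was -0.38 within slide 1 and -0.0005 within slide 2. Sulf1 was lower with rhTM under each of the 17 alternatives, by -0.55 to -0.05, and the value nearest 0 was that without saline replicate 2. As for Hs6st1, the filters, the mean of probes and the blocks on the scanner values could not move Sulf1 from -0.25. Sulf2 had levels of 1.45, 2.02 and 1.67 in saline and 1.84, 1.58 and 1.502 in rhTM. These overlapped widely, with a log2 fold change of -0.05 (-0.44 to 0.33) and -0.14 (-0.49 to 0.22) under the table.

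Several probes report on the same transcript for 5 of the genes, which gives a second reading of the same arrays. Of the 17 probes, 16 were above background on all 6 arrays and none was saturated. Of the 7 other probes, 2 had the sign of the main probe by the scanner output and 5 did in the table. The brighter of the other Glce probes read -0.25 from the scanner and 0.27 from the table, and the dimmer was above background on 3 of 6 arrays and was not tested. No probe passed an adjusted p of 0.05 in a fit over 36061 probes by limma, and at an unadjusted p under 0.05 the counts were 0 of 16 on the scanner values, beside 2.19% of all probes, and 4 on those of the table, beside 12.9%.

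**Figure D3:**
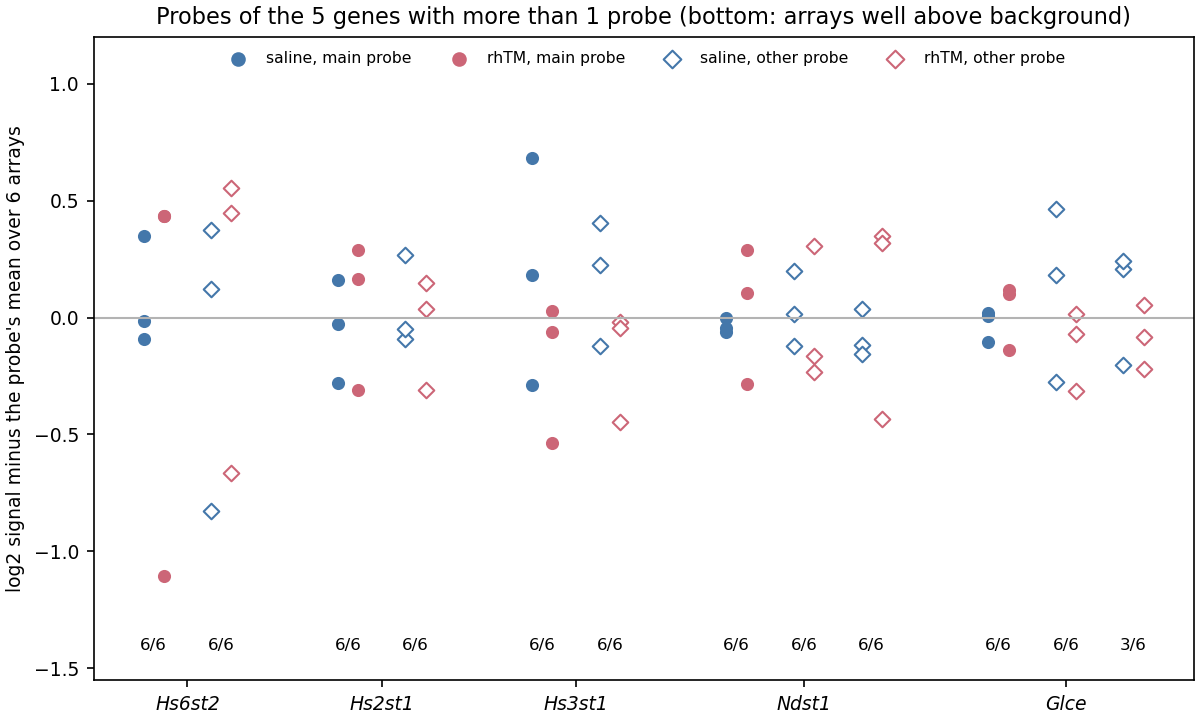
For the 5 genes with more than 1 probe, each column is 1 probe and each point 1 array, as log2 signal minus the mean of that probe over the 6 arrays. Filled circles are the main probe, open diamonds the other probes, blue is saline and red is rhTM. The numbers at the bottom give the arrays on which the probe was well above background, which was 6 of 6 for all but the dimmest probe of Glce.

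Of the rest of the chain-modifying enzymes, 2 of 8 were tested. Hs3st3a1 and Hs3st6, further 3-O-sulfotransferases, had log2 fold changes of 0.14 and 0.12, and -0.46 and 0.74 under the table. The other 6, among them Hs6st3 and Ndst4, were well above background on 0 to 2 arrays. All 12 genes of linker synthesis and chain polymerisation were tested, 4 higher and 8 lower, and their median was -0.08 on the log2 scale. In the table, 5 were higher and the median was -0.01. B3galt6, which adds a galactose of the linker, gave -0.25, and -0.16 by the table. Extl2, a glycosyltransferase of the exostosin family, gave 0.15 and was the 1 of 12 with all rhTM arrays higher, beside 2.95% of all genes. By the table its value was 0.03 and the groups overlapped. Of the genes that supply the sulfate donor PAPS, 6 of 7 were tested. Bpnt2, the Golgi phosphatase that clears the spent donor, gave 0.25 (-0.04 to 0.54), with levels of 6.03, 5.75 and 5.93 in saline and 7.78, 6.43 and 6.87 in rhTM. It was the 1 of 6 with all rhTM arrays higher, but by the table it gave 0.19 and the groups overlapped. Papss2, a synthase of the donor, gave -0.48 (-1.08 to 0.11), with its lowest level, 2.735, in rhTM replicate 1 and 4.57 to 6.21 on the other arrays, and it gave -0.32 by the table. Hpse, the heparanase that cleaves the chain, gave -0.04, and 0.02 by the table. None of these genes had an unadjusted p under 0.05 by the scanner output. In the table, 2 of the 12 linker and polymerisation genes did, beside 14.0% of all genes, namely Ext2 (0.68) and Extl1 (-0.27). They were named after their values were seen, and neither passed adjustment (limma, adjusted p = 0.314 and 0.327). By the scanner output Ext2 gave 0.0005 (-0.78 to 0.78) and Extl1 gave -0.17 (-0.50 to 0.17).

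Cell composition was read from marker genes of the same arrays. The summed level of 10 endothelial markers ranged from 282 to 328 in saline and from 315 to 330 in rhTM, and that of 8 fibroblast markers from 115 to 142 and from 120 to 177. A sum gives bright markers more weight than dim ones. The endothelial sum leaned most on Egfl7, at 7.19 to 7.58 on the log2 scale, with Cldn5 next at up to 6.55. By the table the endothelial sums were 282 to 328 and 322 to 330, and the fibroblast sums 115 to 122 and 120 to 177. Ciliated cell sums were 26.5 to 38.0 in saline and 39.5 to 54.7 in rhTM by the table, erythroid sums 471 to 506 and 579 to 650, and neutrophil sums 928 to 1056 and 1095 to 1215. These 3 of 9 marker lists separated the table groups as Hs6st1, Hs6st2 and Sulf1 did, whereas they overlapped by the scanner output. Their part in those results was not tested. No marker gene passed the test between the groups. On the mean log2 level of the endothelial markers the arrays fell into 2 clusters, at 3.54 to 3.61 (rhTM replicates 1 and 3, saline replicate 1) and at 3.74 to 3.76 (saline replicates 2 and 3, rhTM replicate 2). The first cluster held the 3 highest Hs6st1 levels and the second the 3 lowest, and the clusters were the rhTM and saline groups of the table. The summed levels of the 2 clusters overlapped, and of the 10 single markers 6 ran opposite to Hs6st1 over the arrays and 4 ran with it. Of 20 relations of the 10 genes with the endothelial and fibroblast means, 1 passed adjustment by Pearson's r, that of Hs6st1 with the endothelial mean (inverse, exact permutation p adjusted to 0.028). By Spearman's rho its rank order was fully inverse. That order rests on saline replicate 3 (3.743001) and rhTM replicate 2 (3.742938), which were all but tied in the endothelial mean. The exact permutation p of rho was 0.0028, the smallest that 6 arrays allow. Adjusted over 20 relations that becomes 0.056, so a single relation could not pass by rho. Because the arrays form 2 clusters of 3, no pooled coefficient is given. Within each cluster the order was inverse as well, in the second only by that near tie, and it was not tested at this number of arrays. The direction stayed inverse without the 2 arrays farthest from the median, within the 4 arrays of slide 1, with the median of the markers (adjusted p = 0.694) and after quantile normalization (adjusted p = 0.167), and neither of these adjusted values passed. Sulf1 ran the other way, with an adjusted p of 0.139 in the same exact permutation test, and 0.828 with the median of the markers. Of the 10 single markers, 5 ran with Sulf1 over the arrays. With the median of the same 10 markers the arrays did not part in this way, since rhTM replicate 1 then lay above saline replicate 2. The part of endothelial content in the Hs6st1 levels was not tested. For the mean of the fibroblast markers, the strongest of 10 relations was that of Ndst2, which did not pass adjustment, with Pearson's r of -0.84 (exact permutation p = 0.021, adjusted 0.139 over 20 relations) and Spearman's rho of -0.94 (p = 0.017, adjusted 0.111). Without the 2 arrays farthest from the median of the marker level, r was -0.65 over 4 arrays, and within the 4 arrays of slide 1 it was -0.61. With the median of these markers Glce had the strongest of the 10 relations (r = 0.91, exact permutation p = 0.014, adjusted p = 0.278), ahead of Ndst2 (r = -0.83, adjusted p = 0.375).

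**Figure D4:**
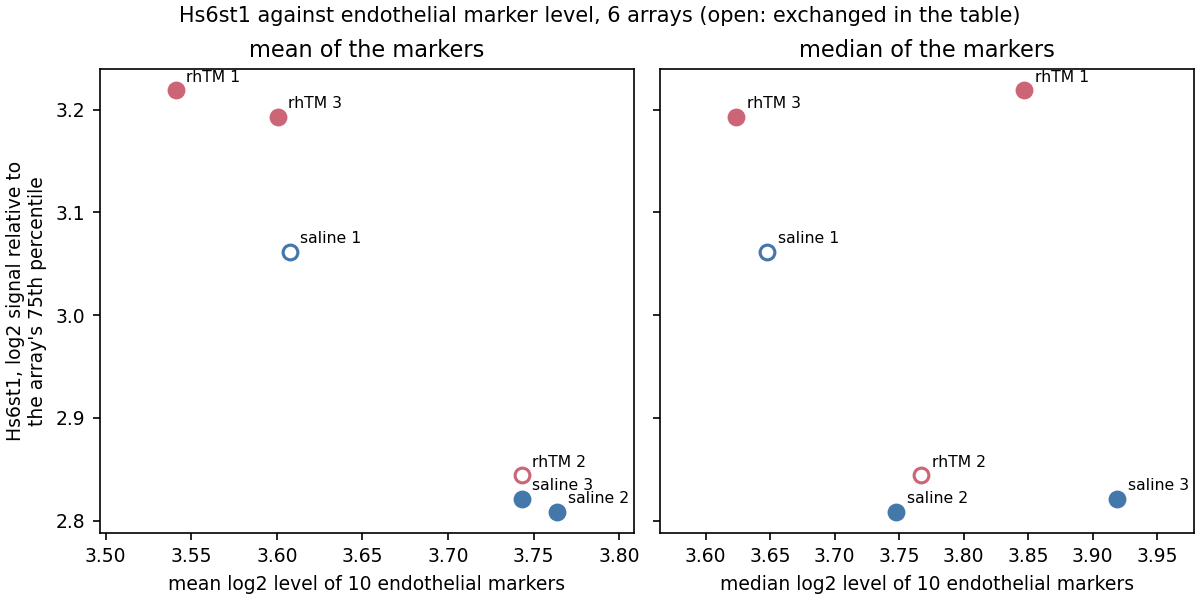
Hs6st1 level (y axis, log2 signal relative to the 75th percentile of the array) against the mean (left) and the median (right) log2 level of 10 endothelial markers, 1 point per array, blue for saline and red for rhTM by the scanner output, open where the table assigns the opposite group. On the left the arrays form 2 clusters, at 3.54 to 3.61 and at 3.74 to 3.76, and on the right they do not.

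The genes whose pattern over the 6 arrays was most like that of Hs6st1 by Pearson's r, among the 16370 tested, were 2310039L15Rik, Spin1 and Rabl6. In all, 302 genes had an r over 0.9 with it. The coefficients are not given, since these arrays share the clusters described above.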

How the data were processed

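Lung RNA of 3 saline and 3 rhTM mice was hybridised to 1-colour Agilent SurePrint G3 Mouse arrays. The authors deposited scanner output per array, whose processed signal is a linear intensity corrected for background (Feature Extraction 10.7.3.1 per the file headers, 9.1 in the submitters' processing notes), and a table of the same intensity values, unscaled between arrays. Groups came from the sample labels and the rhTM dose from the methods. The labels and the methods name different RNA kits.

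Outlier-flagged spots were left out, spots of a probe averaged, and log2 signal scaled by the 75th percentile of each array. Probe accessions were matched to RefSeq genes (GRCm38.p6): 32994 of 56605 probes matched. The array was annotated on a different genome build, and coordinates were left out. Probes entered the test when 1 group or both had all 3 arrays well above background, and the brightest stood for its gene. Groups were compared with limma 3.58.1 (R 4.3.3), Benjamini-Hochberg over all genes, with the exact two-sided permutation test beside it. The fit and the correlation test were tested on simulated data. The number of arrays limits the precision. Members and gene lists were chosen with earlier results of these data known. Genes named besides the 10 were, per list, those with an unadjusted p under 0.05 or the 2 with the smallest, Hpse, and the 3 most like Hs6st1. Alternatives were the authors' table, leaving out both exchanged arrays, normexp background, quantile and another percentile scaling, filters, slide and replicate blocks, mean of probes, each array left out, and the methods' t-test. Markers of AT1 cells, ciliated cells, erythroid cells and cardiac muscle were also read.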

Additional observations from a re-analysis of the deposited data

How the results depend on the processing

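None of the 10 genes passed an adjusted p of 0.05 in the 17 alternatives fitted with limma or in the methods' t-test, and over those 17 fits the median of their log2 fold changes stayed between -0.03 and 0.12. Over all genes the count of calls was 0 except with slide as a block in the authors' table, where it was 432, none of them among the 10. There slide 2 holds arrays of 1 group only, so the contrast rests on slide 1, with 3 saline arrays and 1 rhTM array, and the lone array is assumed to vary like the others. Hs6st1, Hs3st3b1 and Sulf1 kept their sign throughout. For these genes of 1 probe, the filters, the mean of probes and the blocks on the scanner values could not change it. Under the table the sign turned for Hs6st2 (0.81), Hs2st1 (-0.28), Hs3st1 (0.11), Ndst2 (-0.15) and Glce (-0.022). Without both exchanged arrays it turned for Hs6st2 (0.49), Hs2st1 (-0.14) and Ndst2 (-0.080). With slide as a block in the table it turned for Hs6st2 (0.84), Glce (-0.15) and Sulf2 (0.077), and with the mean of the probes for Hs6st2 (0.031) and Glce (-0.10). Leaving out 1 array at a time gave -0.41 to 0.35 for Hs6st2 (0.35 without rhTM replicate 2), -0.022 to 0.28 for Hs2st1 (below 0 without saline replicate 1 or rhTM replicate 2), -0.056 to 0.23 for Ndst1 (below 0 without rhTM replicate 3), -0.073 to 0.17 for Ndst2 (below 0 without saline replicate 1 or rhTM replicate 1) and -0.16 to 0.072 for Sulf2 (above 0 without saline replicate 2 or rhTM replicate 3). The others kept their sign, at -0.62 to -0.14 for Hs3st1 (-0.14 without saline replicate 1, -0.62 without saline replicate 3), 0.008 to 0.14 for Glce (0.008 without rhTM replicate 2, 0.14 without rhTM replicate 1), 0.12 to 0.31 for Hs6st1, 0.23 to 0.43 for Hs3st3b1 and -0.43 to -0.05 for Sulf1. The cause was not tested. The count of relations with a marker level that passed adjustment, 1 by Pearson's r, was 0 with the median of the markers and after quantile normalization. It was also 0 by Spearman's rho, by which 1 relation alone cannot pass with 6 arrays. Its direction stayed inverse in all of these. With the replicate block 0 genes were called. The Hs6st1 value of 0.19 could not change there, since each block holds 1 array of each group. The sample labels do not say whether the replicate numbers pair the mice. Same-numbered arrays correlated at -0.30, 0.44 and -0.45, which cannot settle it. The methods' t-test, on the same values, left 0 genes after Benjamini-Hochberg by either assignment, and at its fold and p thresholds 1 gene of the scanner values and 14 of the table values, none of them among the 10. Dim probes such as those of Hs6st2 limit what can be read of small differences.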

Other observations

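Marker lists outside the comparisons gave the following summed levels, with groups as in the scanner output. Neutrophil markers ranged from 928 to 1100 in saline and from 955 to 1215 in rhTM. AT2 markers ranged from 1294 to 1762 and from 1273 to 1644, and AT1 markers (5 of 6 measured) from 267 to 317 and from 249 to 287. Macrophage markers ranged from 320 to 334 and from 309 to 363. Ciliated cell markers ranged from 35.4 to 39.5 in saline and from 26.5 to 54.7 in rhTM. Erythroid markers (3 of 5 above background) ranged from 496 to 650 and from 471 to 615, and cardiac muscle markers from 23.4 to 50.1 and from 26.7 to 31.3.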
